A study of Homo sapiens with 29 samples.

Results

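Elastic fibre genes were followed across growing fibroblasts, senescent fibroblasts and senescent fibroblasts with SMARCA4 knocked down. The set was given as a list of 10 gene symbols, namely ELN, FBN1, FBN2, MFAP4, MFAP5, LTBP2, FBLN1, FBLN5, EMILIN1 and LOX, and all 10 were found among the 28266 genes of the count table. The 18 RNA sequencing libraries came from IMR90 ER:RAS cells. IMR90 is an established human lung fibroblast line, here carrying a retroviral fusion of the estrogen receptor with oncogenic RAS. 4-hydroxytamoxifen (4OHT) activates the fusion and drives oncogene-induced senescence, and DMSO is the solvent control.

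There were 3 groups of 6 libraries. DMSO_siNT held growing cells with a non-targeting siRNA, and 4OHT_siNT held cells treated with 4OHT and given a non-targeting siRNA. 4OHT_siSMARCA4 held cells treated with 4OHT and given an siRNA against SMARCA4, an ATPase of the SWI/SNF chromatin remodelling complex. Every group carried the ER:RAS construct, received an siRNA (number 2 or 4) before the DMSO or 4OHT was added, and was collected on day 7. Libraries are named by siRNA number, set number and the letters V or VM, whose meaning is not stated. The 6 libraries of 4OHT_siNT are all VM. DMSO_siNT is split evenly, 3 of each kind, and the knockdown group has 3 of V, 2 of VM and 1 whose column name, with siRNA 2 and set 1VM, matches no sample title. This last one, called the unmatched library, was used for its group only. Nothing states that libraries of a group came from separate cultures, so p-values measure the spread between these libraries, which may be technical.

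An elastic fibre has a core of cross-linked elastin and a sheath of microfibrils, which are strands of fibrillin with associated glycoproteins. Fibulins and emilins link tropoelastin to the microfibrils, and lysyl oxidases join the elastin chains covalently. In lung these fibres give the alveolar wall its recoil, and fibroblasts are among the cells that make them.

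Total counts per library were 9657309 to 18039313. SMARCA4 fell from 301 ± 20.9 CPM (SD, n = 6; CPM, a count scaled to library depth by TMM) in 4OHT_siNT to 99.0 ± 27.6 CPM in 4OHT_siSMARCA4, a log2 fold change of -1.61 ± 0.14 (SE; edgeR quasi-likelihood test, adjusted p = 1.3e-06). Each library of 4OHT_siSMARCA4 had less SMARCA4 than each of 4OHT_siNT, and the 2 V libraries 4-2V and 2-3V kept the most, at 141 and 125 CPM. All 9 fibroblast markers examined had a mean above 1 CPM in each group. With 4OHT, 28.9% of all genes tested were called lower and 23.9% higher. Of the 9 markers, 4 were called lower (DCN, COL1A2, THY1 and PDGFRB) and 1 higher (COL6A3, 0.87 on the log2 scale). The other 4 did not pass, among them VIM at 0.095. Decorin (DCN) had the lowest log2 fold change of the 9, with 625 CPM in DMSO_siNT and 17.4 CPM in 4OHT_siNT. The summed level of these markers was 13701 to 34986 CPM in DMSO_siNT, 18895 to 25729 CPM in 4OHT_siNT and 10167 to 16238 CPM in 4OHT_siSMARCA4. Of 10 markers of epithelial, endothelial, blood and muscle cells, SFTPC was at 0 in every library, and apart from CD68, which is also a lysosomal gene, their sum was at most 7.77 CPM in any library. The DMSO_siNT library 4-2V stood apart. It had the fewest counts and only 29.5 CPM of ESR1, the receptor gene of the fusion, while the other DMSO_siNT libraries had 1034 to 1316 CPM. Its HRAS was low too, at 436 CPM where the group median was 2323 CPM. Whether the cells of this library carried the fusion as the others did was not tested. The library was also the lowest of its group for ELN, FBN1, FBN2, MFAP4, LTBP2, FBLN5 and LOX, so values that moved without it are given both ways. Exons on the opposite strand overlap those of ELN (ELN-AS1), FBN2 (SLC27A6), MFAP4 (MAPK7), LOX (SRFBP1), LTBP2 and MFAP5, and whether the counting used strand is not given in the sources used here, so reads of these partners may be included.

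Sequence upstream of the transcription start was matched by symbol in RefSeq (GRCh38.p14) for 6 of the 10 genes, with no entry for ELN, MFAP4, MFAP5 or EMILIN1. The windows of FBN1, FBN2 and FBLN1 are shown, each with the bases in capitals that match a GC box (GGGCGG) or a TEAD motif (GGAATG) on either strand. FBN1 and FBN2 are shown because these paralogues varied together between libraries while after SMARCA4 knockdown FBN2 passed the test and FBN1 did not, and FBLN1 because it had the largest fall with 4OHT among the well-counted genes. The FBN1 window is chr15:48644971-48645220 and the FBN2 window chr5:128538246-128538495, both on the minus strand. The FBLN1 window is chr22:45502633-45502882 on the plus strand, of which only 45502633-45502831 is printed. None of the printed bases lies in an exon of the GENCODE v44 annotation, which places longer transcripts of these genes across these windows.
FBN1: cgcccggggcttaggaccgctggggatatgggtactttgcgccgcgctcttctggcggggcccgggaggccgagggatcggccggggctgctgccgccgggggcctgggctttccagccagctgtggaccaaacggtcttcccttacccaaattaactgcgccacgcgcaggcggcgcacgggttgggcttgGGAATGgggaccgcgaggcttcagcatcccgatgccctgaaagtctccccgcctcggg
FBN2: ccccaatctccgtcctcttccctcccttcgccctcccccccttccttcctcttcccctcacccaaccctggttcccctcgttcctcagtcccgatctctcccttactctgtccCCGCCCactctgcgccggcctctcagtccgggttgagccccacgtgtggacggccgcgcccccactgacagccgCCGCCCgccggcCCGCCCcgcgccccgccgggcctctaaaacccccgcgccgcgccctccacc
FBLN1: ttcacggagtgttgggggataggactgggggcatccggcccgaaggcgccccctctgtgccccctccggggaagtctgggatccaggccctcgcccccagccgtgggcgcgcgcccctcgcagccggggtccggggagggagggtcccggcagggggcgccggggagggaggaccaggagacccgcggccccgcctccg

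A GC box stood in 5 of the 6 members' windows of 250 bases, in all but FBN1, against 42.6% of the 35116 windows in the table. The FBN2 window held 3 of them and the FBN1 window 1 TEAD motif, which 11.9% of all windows held. Neither the AP-1 motif TGANTCA (6.57% of all windows) nor the TATA motif TATAAA (10.7%) was found in any of the 6 windows. The share of G and C was 69.6% in FBN1, 72.8% in FBN2 and 77.6% in FBLN1, with a median of 58.0% over all windows. No motif searched shares letters with another in the printed windows, and the GC box of FBLN1 lies past the end of its printed stretch. A match of letters is a description of the sequence only.

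The first comparison asked what changed when RAS was switched on. Of the 10 genes, 9 had enough counts to be tested in 4OHT_siNT against DMSO_siNT. Of these, 4 fell (ELN, FBLN1, LOX and MFAP4), 1 rose (EMILIN1) and 4 did not pass the test (FBN1, FBN2, LTBP2 and FBLN5). Among all 13136 genes tested, 28.9% were called lower and 23.9% higher, so a call by itself was common in this comparison. ELN passed the count filter through DMSO_siNT alone, where it is high. Against DMSO_siNT, its place among genes called lower or not overlapping, and its rank among genes tested, are therefore no support for the set. The median log2 fold change of the 9 genes was -0.32, beside -0.053 over all genes tested. The groups did not overlap for EMILIN1, ELN, FBLN1 and LOX, which is 1 gene higher and 3 lower, and among all genes tested 17% did not overlap in the higher direction and 16.8% in the lower. In bulk RNA, fewer cells expressing a gene and less RNA per cell cannot be told apart.

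**Figure D1:**
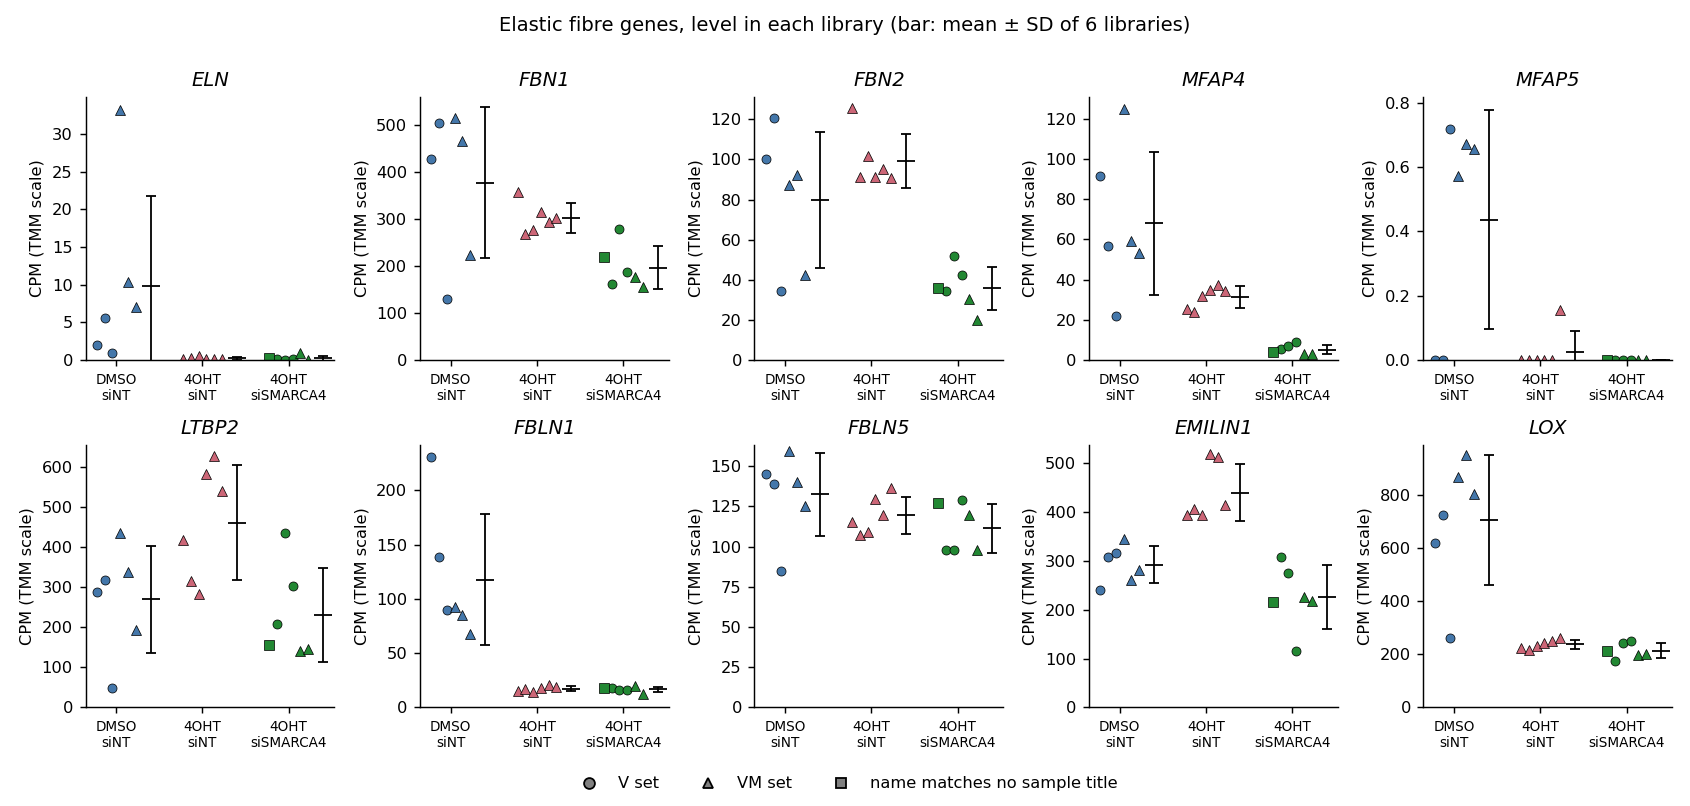
Level of each of the 10 genes in each of the 18 libraries, in CPM on the TMM scale (vertical axis, linear, from 0), by group; circles are V sets, triangles VM sets and the square the library whose name matches no sample title, and the bar beside each group is the mean ± SD of its 6 libraries, drawn from 0 where mean minus SD is below 0. FBLN1 and LOX separated DMSO_siNT from both 4OHT groups, while FBN2, MFAP4 and EMILIN1 were lower in every 4OHT_siSMARCA4 library than in any 4OHT_siNT library.

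ELN encodes elastin, the rubber-like core protein. It lies on chr7:74027789-74069907 (GRCh38, plus strand). In DMSO_siNT its level was 0.956 CPM at the lowest, 6.25 CPM at the median and 33.1 CPM at the highest. In 4OHT_siNT it was 0.068, 0.12 and 0.52 CPM, so the groups did not overlap. Over the group, 802 counts in DMSO_siNT stood against 16 in 4OHT_siNT, a ratio of 54.7 in counts per depth with a 95% counting interval of 33.5 to 96.2, which covers counting error only. Without the library 4-2V the ratio was 60.9. The log2 fold change was -5.61 ± 0.84 (adjusted p = 1.6e-05), the 18th lowest of the 13136 genes tested. Within DMSO_siNT the level of ELN differed by set letters. The VM libraries had 33.1, 10.4 and 6.99 CPM and the V libraries 2.00, 5.52 and 0.956 CPM. This difference between set letters was 2.55 ± 0.66 on the log2 scale, with an adjusted p of 0.1 over all genes, and none of the 9 genes passed this test by edgeR, where 0.324% of all genes were called. At an unadjusted p under 0.05 there were 3 of the 9 and 16% of all genes. Within VM sets alone, 4OHT_siNT was lower than DMSO_siNT by a log2 value of -6.37 (adjusted p = 3.74e-07).

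The fibulins are adaptor proteins of the fibre. FBLN1 (fibulin-1, chr22:45502238-45601135), a fibulin found within the elastin core, had 67.2, 91.4 and 231 CPM in DMSO_siNT at the lowest, median and highest library. In 4OHT_siNT it had 14.5, 17.4 and 20.4 CPM. The lowest library of the growing cells was thus above the highest of the senescent ones. Its log2 fold change was -2.77 ± 0.24 (adjusted p = 1.27e-08). FBLN5 (fibulin-5, chr14:91869411-91947987), which binds tropoelastin and is needed for fibre assembly, had 85.0, 140 and 160 CPM in DMSO_siNT and 107, 117 and 136 CPM in 4OHT_siNT. These ranges overlapped and the log2 fold change of -0.15 ± 0.13 did not pass (adjusted p = 0.345, 95% interval -0.42 to 0.12). Without the library 4-2V it was -0.24 (adjusted p = 0.0358).

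LOX encodes lysyl oxidase, the enzyme that cross-links elastin and collagen (chr5:122063195-122078413). Its levels in DMSO_siNT were 263 CPM at the lowest, 765 CPM at the median and 951 CPM at the highest. In 4OHT_siNT they were 215, 238 and 261 CPM. The groups were separated narrowly by 4-2V, since the other DMSO_siNT libraries had at least 620 CPM. The log2 fold change was -1.57 ± 0.21 (adjusted p = 3.18e-06) and -1.74 without 4-2V.

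EMILIN1, which sits at the interface of elastin and microfibrils (chr2:27078615-27086403), moved the other way. It had 242, 295 and 344 CPM in DMSO_siNT and 394, 411 and 518 CPM in 4OHT_siNT. Every senescent library was above every growing one, with a log2 fold change of 0.59 ± 0.17 (adjusted p = 0.00687). In subsets of the libraries the call depended on the fit. With siNT 2 the rise was not called in the fit by siRNA number (0.43, adjusted p = 0.185). It was called in a fit of siRNA 2 alone (0.43, adjusted p = 0.0209). With siNT 4 it was called in the fit by siRNA number (0.76, adjusted p = 0.018). It was not called in a fit of siRNA 4 alone (0.78, adjusted p = 0.0596). For VM sets it was not called in the fit by set letters (0.58, adjusted p = 0.06). A fit of VM sets alone called it (0.58, adjusted p = 0.00108). The library 4-2V, at 317 CPM, was not low for this gene.

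Microfibril genes differed among themselves. MFAP4, a glycoprotein that binds fibrillin and tropoelastin (chr17:19383442-19387190), had 22.1, 58.0 and 125 CPM in DMSO_siNT and 24, 33.0 and 37.2 CPM in 4OHT_siNT. Its ranges overlapped through 4-2V alone, and the log2 fold change was -1.13 ± 0.31 (adjusted p = 0.00498), or -1.30 without that library. FBN1 (fibrillin-1, chr15:48408313-48645721), the main strand of microfibrils in adult tissue, had 129, 446 and 513 CPM in DMSO_siNT and 268, 298 and 358 CPM in 4OHT_siNT. The change of -0.32 ± 0.25 did not pass (adjusted p = 0.294), while without 4-2V it was -0.49 (adjusted p = 0.0185). FBN2 (fibrillin-2, chr5:128257909-128659185), known for its role in developing tissue, had 34.4, 89.8 and 121 CPM in DMSO_siNT and 90.6, 93.3 and 126 CPM in 4OHT_siNT. The lowest growing libraries were 4-2V and 4-3VM, and its log2 fold change was 0.32 ± 0.26 (adjusted p = 0.306, 95% interval -0.22 to 0.85), or 0.17 without 4-2V (adjusted p = 0.494). LTBP2 (chr14:74498183-74612378), a relative of the latent TGF-beta binding proteins that attaches to fibrillin-1, had 47.5, 302 and 434 CPM in DMSO_siNT and 282, 479 and 626 CPM in 4OHT_siNT. Its change of 0.77 ± 0.38 did not pass (adjusted p = 0.0973), and it was 0.56 without 4-2V.

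MFAP5, a microfibril glycoprotein of the MAGP family (chr12:8637346-8662888), had too few counts to be tested. Its counts in DMSO_siNT were 0 in 2 libraries and 6, 8, 9 and 9 in the others. In 4OHT_siNT there were 2 counts in 1 library and 0 in the other 5, and no 4OHT_siSMARCA4 library had a count. With 0 counts in a library the level could have been as high as 3 counts allow, and all but 4 of the 18 libraries were at or under that floor.

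**Figure D2:**
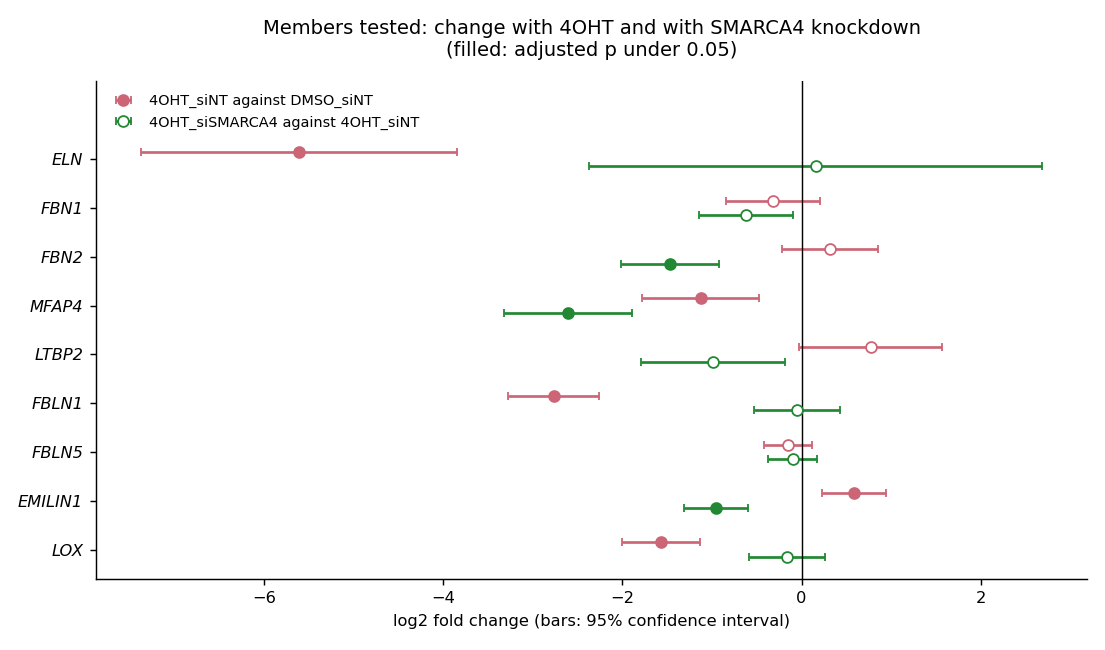
Log2 fold change (horizontal axis) of the 9 tested genes with 4OHT (4OHT_siNT against DMSO_siNT, red) and with SMARCA4 knockdown in senescent cells (4OHT_siSMARCA4 against 4OHT_siNT, green), with bars for the 95% confidence interval and filled points for adjusted p under 0.05; both comparisons share the 4OHT_siNT libraries. ELN, FBLN1 and LOX were called in the first comparison, FBN2 in the second and MFAP4 in both, and EMILIN1 had 0.59 in the first and -0.96 in the second.

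The second comparison asked what SMARCA4 knockdown changed in senescent cells. Of the 9 genes tested in 4OHT_siSMARCA4 against 4OHT_siNT, 3 fell (MFAP4, FBN2 and EMILIN1), none rose and 6 did not pass the test. Among all genes tested 5.65% were called lower and 4.99% higher. With the set label entered as a block, which drops the unmatched library, only MFAP4 was called. The share of all genes called in that block fit is not given, so this count is not read as a result about these genes alone. In that fit FBN2 had -1.68 (adjusted p = 0.0637) and EMILIN1 -0.91 (adjusted p = 0.136). The 3 genes that fell were also those whose groups did not overlap, as was true of 6.27% of all genes in the lower direction and 5.12% in the higher. The median log2 fold change of the 9 genes was -0.62, and that of all genes tested 0.010. Of the 9 fibroblast markers 7 were called lower too and none higher, from COL1A2 at -1.46 (adjusted p = 0.000618) to DCN at -0.66 (adjusted p = 0.0242). PDGFRA (-0.13) and VIM (-0.028) did not pass, and the part of this in the members' values was not tested.

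MFAP4 showed the largest fall of the set. Its levels in 4OHT_siNT were 24 CPM at the lowest, 33.0 CPM at the median and 37.2 CPM at the highest, and in 4OHT_siSMARCA4 they were 2.87, 4.58 and 8.82 CPM. The log2 fold change of -2.61 ± 0.34 (adjusted p = 9.56e-05) was the 19th lowest of the 13136 genes tested. Leaving out each of the 18 libraries in turn gave -2.83 to -2.5, and the gene was called each time. Within VM sets the change was -3.44 (adjusted p = 2.85e-05).

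FBN2 fell from 90.6, 93.3 and 126 CPM at the lowest, median and highest library to 19.7, 35.1 and 51.7 CPM. Its log2 fold change was -1.47 ± 0.26 (adjusted p = 0.00132), and -1.99 within VM sets (adjusted p = 0.000136). The highest library of the knockdown was 4-2V, which also kept the most SMARCA4, and the lowest was 4-2VM, which kept the least, 70.4 CPM. Whether FBN2 went with SMARCA4 between these libraries was not tested. Of the other genes called, MFAP4 was highest in the knockdown library 4-3V (8.82 CPM) and EMILIN1 lowest in it (116 CPM). FBN1 went from 268, 298 and 358 CPM to 155, 182 and 278 CPM. Only the library 4-2V, at 278 CPM, reached into the range of 4OHT_siNT. The change of -0.62 ± 0.25 did not pass in the fit of all libraries (adjusted p = 0.125). Without the DMSO_siNT library 4-2V, which is in neither group of this comparison but shares its estimate of the spread, the change of -0.63 passed (adjusted p = 0.00817), and it was -0.88 in a fit of VM sets alone (adjusted p = 0.0133). For VM sets in the fit by set letters it was -0.87 and did not pass (adjusted p = 0.221).

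EMILIN1 fell from 394, 411 and 518 CPM to 116, 223 and 308 CPM. The log2 fold change was -0.96 ± 0.17 (adjusted p = 0.00142), which left it at 227 ± 65.5 CPM (SD, n = 6) beside 292 ± 38 CPM in DMSO_siNT. Against DMSO_siNT that difference, -0.37 ± 0.17, did not pass (adjusted p = 0.0808). LTBP2 went from 282, 479 and 626 CPM to 140, 182 and 435 CPM. The V libraries 4-2V and 4-3V of the knockdown, at 435 and 302 CPM, lay within the range of 4OHT_siNT, and the other 4 libraries lay below it. Its change was -0.99 ± 0.38 (adjusted p = 0.109), -1.29 without the knockdown library 4-2V (adjusted p = 0.0358), -1.0 without the DMSO_siNT library 4-2V (adjusted p = 0.0103) and -1.70 in a fit of VM sets alone (adjusted p = 0.00221). For VM sets in the fit by set letters it was -1.69 and did not pass (adjusted p = 0.0793).

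ELN, FBLN1, LOX and FBLN5 were not called with knockdown in the fit of all libraries. ELN had 16 counts over the 6 libraries of 4OHT_siNT and 17 over those of 4OHT_siSMARCA4, where 11 came from the library 2-3VM and 1 library had 0. The 95% interval of its log2 fold change, -2.38 to 2.69, shows that neither a fall nor a rise of several-fold was detectable at this depth. FBLN1 was at 17.2 ± 2.39 CPM in 4OHT_siNT and 16.6 ± 2.44 CPM in 4OHT_siSMARCA4 (SD, n = 6), a log2 difference of -0.051 with a 95% interval of -0.54 to 0.43. LOX was at 237 ± 17.3 and 213 ± 28.2 CPM, with an interval of -0.58 to 0.27. FBLN5 was at 119 ± 11.6 and 112 ± 15.2 CPM, with an interval of -0.37 to 0.17. For each of these 4 genes the libraries of both groups overlapped.

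Set against growing cells, senescent cells with SMARCA4 knocked down had 6 of the 9 genes lower and none higher, where 27.3% of all genes tested were called lower and 23.3% higher. The groups did not overlap for 4 of the 9 (ELN, MFAP4, FBLN1 and LOX), all lower, beside 15.3% of all genes in that direction and 14.3% in the higher. This comparison shares its libraries with the other comparisons, so its values stand beside theirs. MFAP4 had -1.13 with 4OHT, -2.61 with knockdown and -3.73 ± 0.35 from DMSO_siNT to 4OHT_siSMARCA4 (adjusted p = 3.31e-08). FBN2 had 0.32, -1.47 and -1.15 ± 0.26 (adjusted p = 0.001). FBN1 had -0.32, -0.62 and -0.94 ± 0.25, of which the last passed (adjusted p = 0.00404). ELN, FBLN1 and LOX had -5.45, -2.82 and -1.73. LTBP2 (-0.22), FBLN5 (-0.25) and EMILIN1 did not pass. Without the DMSO_siNT library 4-2V, FBLN5 had -0.35 and was called (adjusted p = 0.0037), LTBP2 had -0.44 (adjusted p = 0.186), FBN1 -1.12 and FBN2 -1.30. A fit of V sets alone gave 3 calls in place of 6, for ELN, MFAP4 and FBLN1, with 12.7% of all genes called lower, and LTBP2 had 0.54 (adjusted p = 0.597). The same contrast of V sets in a fit of all sets by group and letters gave 5, with LOX and FBN2 added and 23.6% of all genes called lower.

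Knockdown used 2 siRNAs against SMARCA4, each with a control siRNA of the same number. The labels give no sequence for them. Against siNT 2, siSMARCA4_2 lowered MFAP4 by a log2 value of -2.71 ± 0.50 (adjusted p = 0.00697) and FBN2 by -1.71 ± 0.40 (adjusted p = 0.0284). Against siNT 4, siSMARCA4_4 lowered MFAP4 by -2.53 ± 0.41 (adjusted p = 0.00638) and EMILIN1 by -1.25 ± 0.25 (adjusted p = 0.0178). MFAP4 was thus called with each siRNA in this fit of all groups by siRNA number. In a fit of siRNA 4 alone its fall did not pass. Called lower were 2 of the 9 genes in each case, while 2.09% of all genes were called lower with siSMARCA4_2 and 1.02% with siSMARCA4_4.

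FBN2 with siSMARCA4_4 had -1.30 ± 0.34 (adjusted p = 0.0615) and EMILIN1 with siSMARCA4_2 had -0.58 ± 0.28 (adjusted p = 0.31). The difference between the siRNAs was tested as an interaction and passed for none of the 9 genes, nor for any of 13887 genes by the edgeR quasi-likelihood test, where 865 genes and none of the 9 had an unadjusted p under 0.05. For EMILIN1 the interaction was 0.67 with a 95% interval of -0.10 to 1.45, and for FBN2 -0.41 with an interval of -1.48 to 0.67, so sizeable differences between the siRNAs remain within the intervals. siSMARCA4_2 had 2 libraries in this fit. The unmatched library, whose column name also gives siRNA 2, was left out.

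**Figure D3:**
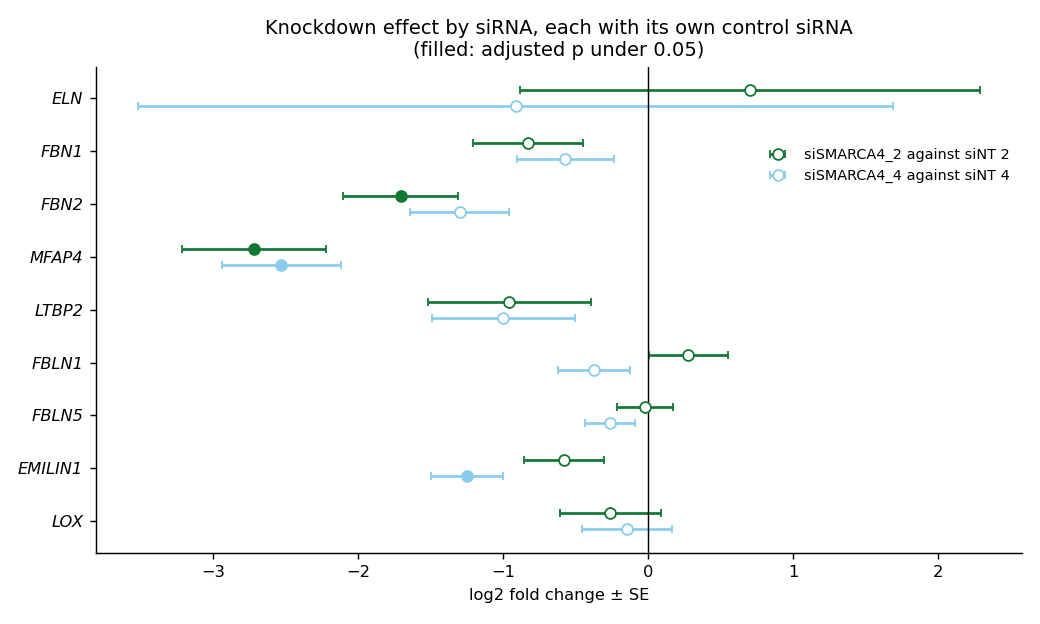
Log2 fold change ± SE (horizontal axis) of the 9 tested genes in senescent cells for siSMARCA4_2 against siNT 2 (dark green) and siSMARCA4_4 against siNT 4 (light blue), from a fit of group by siRNA number without the unmatched library; filled points have an adjusted p under 0.05. MFAP4 was filled for both siRNAs, at -2.71 and -2.53, FBN2 for siSMARCA4_2 and EMILIN1 for siSMARCA4_4.

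With the control siRNAs taken apart, the change with 4OHT had the same direction for ELN (-5.49 with siNT 2, -5.86 with siNT 4), FBLN1 (-3.32 and -2.06) and LOX (-1.71 and -1.41), and each of these passed. MFAP4 had -1.73 with siNT 2 (adjusted p = 0.00219) and -0.34 with siNT 4 (adjusted p = 0.458). LTBP2 had -0.017 with siNT 2 and 1.60 with siNT 4 (adjusted p = 0.0157). In all, 4 of the 9 genes were called lower and 0 higher with siNT 2, beside 19.5% and 16.3% of all genes, and 3 lower and 2 higher (EMILIN1 and LTBP2) with siNT 4, beside 27.8% and 22%. The growing siNT 4 libraries include 4-2V, at 22.1 CPM of MFAP4 and 47.5 CPM of LTBP2, and the difference between the siRNAs was not tested for this contrast. In growing cells themselves, siNT 2 was not called different from siNT 4 for any of the 9 genes by edgeR, where 0.0288% of all genes were called. At an unadjusted p under 0.05 there were 4 of the 9 and 26.1% of all genes. FBLN1 had the smallest p of the 9, with a difference of 0.93 ± 0.24 (siNT 2 above siNT 4, adjusted p = 0.0834).

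Set letters were compared within the knockdown, VM against V, and SMARCA4 itself did not pass (-0.59 ± 0.17 on the log2 scale, adjusted p = 0.247). None of the 9 genes passed by edgeR either, with 0.101% of all genes called, and at an unadjusted p under 0.05 there were 1 of the 9 and 8.15% of all genes. The values were -1.25 ± 0.52 for MFAP4, -1.13 ± 0.58 for LTBP2, -0.76 ± 0.41 for FBN2, -0.33 for FBN1, -0.15 for LOX, -0.065 for FBLN1 and for EMILIN1, 0.018 for FBLN5 and 2.53 ± 1.54 for ELN, the last from very few counts. All 4OHT_siNT libraries are VM, so set letters and treatment are partly confounded in the comparisons over all libraries. Within VM sets, 5 of the 9 genes were called lower with knockdown in place of 3, with FBN1 and LTBP2 joining MFAP4, FBN2 and EMILIN1, from 2 knockdown libraries in a fit of VM sets alone that called 12.2% of all genes lower. Adding the unmatched library to these gave 6 and 16.7% of all genes, the sixth being LOX at -0.24 (adjusted p = 0.0457). The contrast of VM sets in the fit of all sets by group and letters called MFAP4, FBN2 and EMILIN1, 3 of the 9, and 4.8% of all genes lower.

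Levels were compared between genes per kilobase of exon, with the length of the merged exons of GENCODE v44. In DMSO_siNT the order was LOX (126 ± 43.8 CPM per kilobase, SD, n = 6), EMILIN1 (74.9 ± 9.73), MFAP4 (32.3 ± 16.9), LTBP2 (29.7 ± 14.7), FBLN5 (21.1 ± 4.10), FBN1 (20.3 ± 8.70), FBLN1 (16.1 ± 8.30), FBN2 (4.46 ± 1.90), ELN (1.5 ± 1.81) and MFAP5 (0.11 ± 0.088). From MFAP4 to FBLN1 each pair of neighbours in this order differed by less than the larger of their SDs. Elastin itself was thus near the bottom of the set in growing cells while its cross-linking enzyme was at the top. In 4OHT_siNT the order began with EMILIN1 (113 ± 15.1), LTBP2 (50.7 ± 15.8) and LOX (42.4 ± 3.09), where LTBP2 and LOX differed by less than the SD of LTBP2. FBLN1 was at 2.37 ± 0.33 and ELN at 0.030 ± 0.027. In 4OHT_siSMARCA4, EMILIN1 (58.1 ± 16.8) and LOX (38 ± 5.04) led, and MFAP4 (2.42 ± 1.12), FBLN1 (2.28 ± 0.33) and FBN2 (2.00 ± 0.60) were within their SDs of each other.

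**Figure D4:**
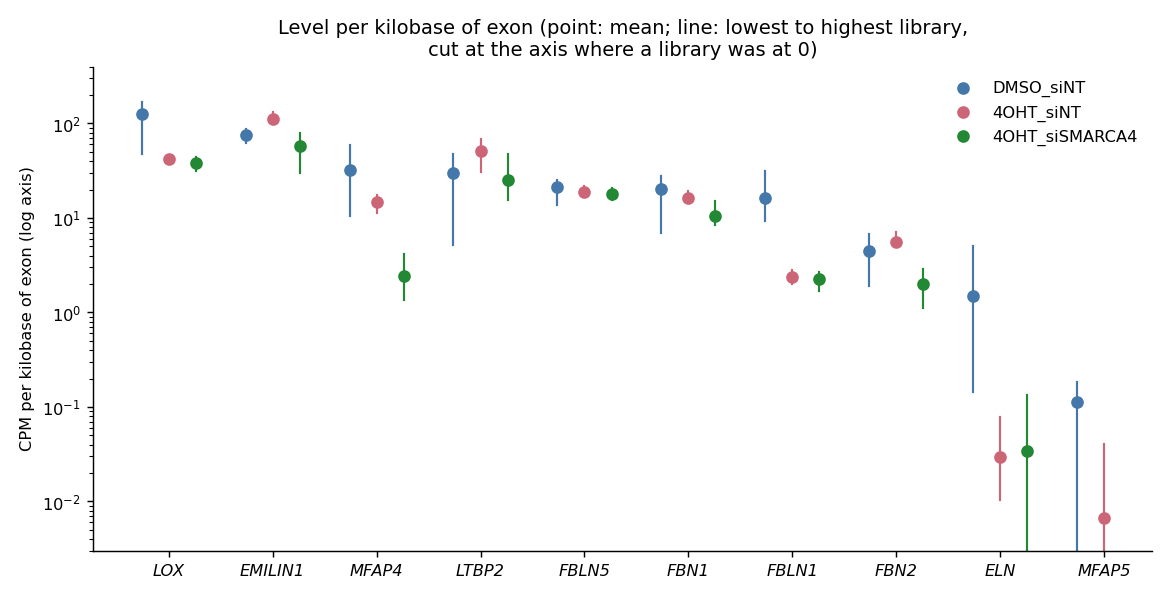
Level per kilobase of exon (vertical axis, log scale, CPM per kilobase) of the 10 genes in the order of DMSO_siNT; points are means of 6 libraries and lines run from the lowest to the highest library, ending at the foot of the axis where a library was at 0, and MFAP5 has no point in 4OHT_siSMARCA4 because all its libraries were at 0. LOX led in DMSO_siNT at 126 and EMILIN1 in 4OHT_siNT at 113, and ELN was at 1.5 in DMSO_siNT and 0.030 in 4OHT_siNT.

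Some of the genes varied together between libraries of the same group. After subtracting group means of log2 CPM, Pearson's r over the 18 libraries was 0.90 for FBN1 with FBN2, 0.86 for MFAP4 with LTBP2 and 0.85 for FBN1 with LTBP2. Without the library 4-2V these were 0.86, 0.76 and 0.64. EMILIN1 had r between -0.31 and 0.037 with each of the other 8 genes. These libraries share depth and set, so the values describe them and no more. Over all 18 libraries, the genes most like ELN in log2 CPM were PLCB4 (r = 0.96), C12orf75 (0.94), MYBL1 (0.94), PSG5 (0.94) and ACTA2 (0.94). ACTA2, smooth muscle actin, was at 297 CPM in DMSO_siNT, 112 CPM in 4OHT_siNT and 83.7 CPM in 4OHT_siSMARCA4 on average, and PLCB4, a phospholipase, at 108, 22.8 and 15.7 CPM. Groups of unlike level set much of this likeness.

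Other genes of elastic fibres were read from 3 lists: 17 relatives of the members, 13 genes that process or assemble fibre proteins, and 10 proteases able to cleave elastin or its fragments. Of these 40 genes, 28 had enough counts. Like the members, the lists were chosen with earlier results of these data known, so their counts and medians beside all genes are description only. With 4OHT, 8 of the 11 tested relatives fell and 1 rose, where 28.9% of all genes tested were called lower and 23.9% higher. EFEMP1 (fibulin-3) had -3.81 ± 0.27 (adjusted p = 6.5e-10), FBLN2 (fibulin-2) -2.99 ± 0.26, LOXL1, a lysyl oxidase needed to renew elastin, -1.61 ± 0.19, EFEMP2 (fibulin-4) -1.27 ± 0.10 and LOXL3 -1.23 ± 0.25. EFEMP1 went from 55.0 ± 20.2 CPM to 3.92 ± 0.96 CPM (SD, n = 6). The median of the relatives was -0.93, beside -0.053 over all genes tested. Of the fibulins tested, FBLN1, FBLN2, EFEMP1 and EFEMP2 were called lower and FBLN5 was not.

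In the processing list 4 of 9 tested genes rose and 2 fell with 4OHT, beside 23.9% of all genes called higher and 28.9% lower. POGLUT3, an O-glucosyltransferase that modifies fibrillins, had -2.47 ± 0.14 and ADAMTSL4, which promotes fibrillin-1 deposition, -1.29 ± 0.20. Of the 8 tested proteases, 6 rose and none fell. MME (neprilysin) went from 26.8 ± 9.67 to 515 ± 35.3 CPM, CTSS (cathepsin S) from 1.96 ± 1.30 to 43.5 ± 4.00 CPM, and CTSK (cathepsin K) from 32.1 ± 7.44 to 95.6 ± 10.7 CPM (SD, n = 6). MMP12, macrophage elastase, went from 0.23 ± 0.22 to 3.24 ± 0.93 CPM. MMP7 and MMP9 were called higher from very few counts: no DMSO_siNT library had more than 1 count of MMP7 or more than 3 of MMP9, and no 4OHT_siNT library fewer than 18 or 6. MMP12 had at most 8 counts in DMSO_siNT, and CTSS had 9 in its lowest DMSO_siNT library. MMP7, MMP9, MMP12 and CTSS passed the count filter through the 4OHT groups, where they are high, so the count of 6 is no support for the list. With at least 10 counts asked of every library, 7 genes of the 3 lists were called higher in place of 11. ELANE, neutrophil elastase, had at most 2 counts in any library.

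**Figure D5:**
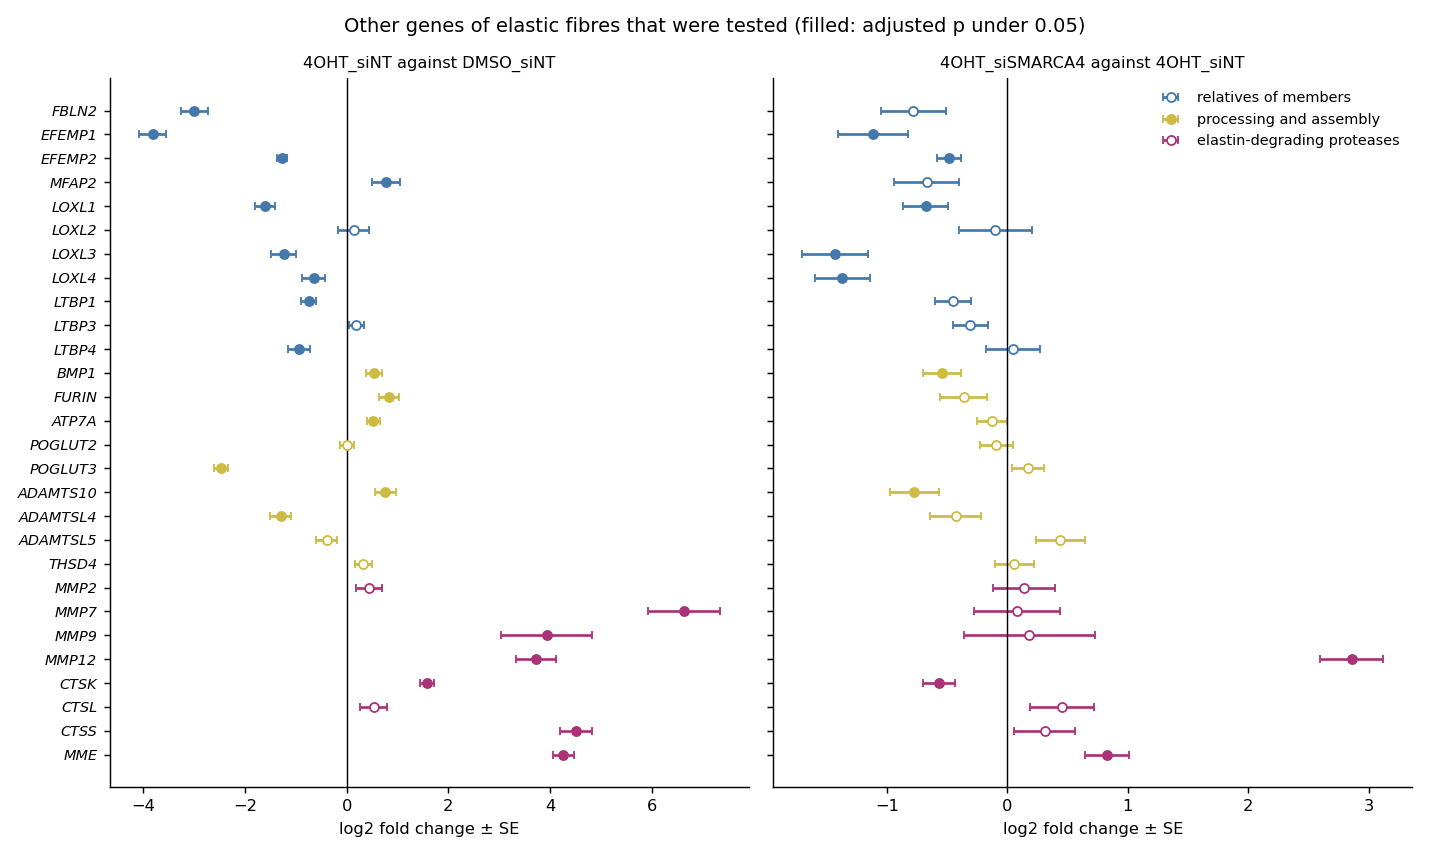
Log2 fold change ± SE of the 28 other elastic fibre genes tested, with 4OHT (left) and with SMARCA4 knockdown (right, a narrower scale); relatives of the members are blue, processing and assembly genes yellow and proteases purple, and filled points have an adjusted p under 0.05. On the left 8 blue points are called lower and 6 purple points higher, and on the right MMP12 stands alone at 2.86.

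With SMARCA4 knockdown, 5 of the 11 relatives fell and none rose, 2 of the 9 processing genes fell, and of the 8 proteases 2 rose and 1 fell. Beside these, 5.65% of all genes tested were called lower and 4.99% higher. LOXL3 had -1.43 ± 0.27 (adjusted p = 0.00231), LOXL4 -1.37 ± 0.23 (adjusted p = 0.000824) and EFEMP1 -1.12 ± 0.29 (adjusted p = 0.0178). The medians were -0.67 for the relatives, -0.13 for the processing genes and 0.25 for the proteases, beside 0.010 over all genes tested. MMP12 rose from 3.24 ± 0.93 to 23.6 ± 5.32 CPM (SD, n = 6), a log2 fold change of 2.86 ± 0.26 (adjusted p = 2.31e-06), with at least 16.3 CPM in each knockdown library and at most 4.36 CPM in each control library. LOXL4 went from 19.9 ± 6.31 to 7.65 ± 2.44 CPM. Together 8 of the 28 genes were called lower in this comparison, and 13 were without the DMSO_siNT library 4-2V. The share of all genes called lower in that second fit is not given, so the rise to 13 is not read as a result about these genes.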

How the data were processed

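RNA was sequenced from IMR90 ER:RAS cells, and 18 libraries entered the analysis. The authors deposited raw counts per gene, not normalized, in 36 columns of 2 lanes per library. Per the submitters' processing notes, reads were aligned with STAR 2.7.8a to hg38, and DESeq2 1.36.0 is also listed. Libraries were polyadenylated, strand-specific and single-end. The counting program, its annotation and its strand setting are not given in the sources used here. Of the 29 samples in the labels, 17 matched columns by title. The other library, named for siRNA 2 and set 1VM in the knockdown group, matched no sample title. It was used as a replicate of that group without siRNA number or set, and samples without a column were not used here.

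Lanes were summed. Genes were filtered with filterByExpr (minimum count 10), which kept 13136 genes with 99.91% of counts. Differences were tested with the edgeR 4.0.16 quasi-likelihood test (R 4.3.3, TMM, all libraries in 1 fit, no covariate, common biological coefficient of variation 23.35%), two-sided, adjusted by Benjamini-Hochberg over all genes tested with a call where the adjusted value was under 0.05. Standard errors were derived from the F statistic and 95% intervals from the t quantile of the fit. Fits by siRNA number or set letters left out the unmatched library and tested 13887 genes. Log2 CPM for correlations used a prior count of 2. Total counts were 9657309 to 13448183 (DMSO_siNT), 13237672 to 15407710 (4OHT_siNT) and 11382143 to 18039313 (4OHT_siSMARCA4). In 45 pairs of libraries within groups the chi-square per degree of freedom was at least 2.33, so none was treated as a duplicate. The fits were checked on simulated data. Coordinates and exon lengths are from GENCODE v44 (GRCh38), and promoter windows from RefSeq.

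The members and lists were chosen with earlier results of these data known. Named genes were all members, listed genes called with an absolute log2 fold change above 1 (at most 8 per contrast and direction), the 5 genes most correlated with ELN and, where a sentence needed them, genes that check cell state. COL1A2, THY1, PDGFRB, PDGFRA, COL6A3, VIM, DCN, CD68, ELN-AS1, SLC27A6, SRFBP1, SFTPC, ELANE and MAPK7 are named outside that rule, chosen after their values were seen. Alternatives covered scaling, DESeq2 1.42.0, count filters, the set label as a block, subsets of libraries, thresholds and leaving out each library. VM sets with the unmatched library, V sets alone and the interaction of knockdown with siRNA number were added after seeing the data.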

Additional observations from a re-analysis of the deposited data

Results flagged for a closer look

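In all, 29 sets of 6 libraries were examined, 1 per gene and group on a log2 scale. A library was flagged where its distance to its nearest neighbour, as a share of the range of the group, was above Dixon's 95% critical value. A flag also asked for at least 10 counts in the highest library of the set. By both rules 4 sets were flagged, where chance alone gives about 1.45 if all 29 could be flagged. MFAP5 in 4OHT_siNT (library 4-3VM, share 1) was above the critical value but had too few counts. In DMSO_siNT the library 4-2V was the lowest for LOX (share of the range 0.667, 263 CPM beside 620 to 951 CPM) and for LTBP2 (0.637, 47.5 CPM beside 194 to 434 CPM). This is the library with little ESR1. In 4OHT_siNT the library 2-1VM was the highest for FBN2 (0.655, 126 CPM where the group median was 93.3 CPM). In 4OHT_siSMARCA4 the library 4-3V was the lowest for EMILIN1 (0.632, 116 CPM where the group median was 223 CPM). Leaving out each of the 18 libraries in turn kept EMILIN1 called lower with knockdown, with log2 fold changes of -1.06 to -0.82.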

How the results depend on the processing

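The 3 genes called lower with knockdown (MFAP4, FBN2, EMILIN1) and the 5 called with 4OHT were called in each of the 18 fits that left out 1 library. Members called ranged over these fits from 1 to 2 higher and 4 to 6 lower with 4OHT, from 3 to 5 lower with knockdown and from 6 to 7 lower in 4OHT_siSMARCA4 against DMSO_siNT. The 2 higher came without the DMSO_siNT library 2-2VM, when LTBP2 had 0.96 (adjusted p = 0.0491), and the 5 lower without the DMSO_siNT library 4-2V. Other elastic fibre genes called lower with knockdown ranged from 5 (without the knockdown library 4-2VM) to 13 (without 4-2V of DMSO_siNT). With the set entered as a replicate block, which drops the unmatched library, 0 members were higher with 4OHT and 1 was lower with knockdown (MFAP4, -2.81, adjusted p = 0.0254), with 1 other gene higher and 2 lower. In that fit MFAP4 had -0.97 (adjusted p = 0.0974) and EMILIN1 0.60 (adjusted p = 0.0858) with 4OHT. Sets shared by 2 groups had correlations of -0.23 to 0.27, so they share a label and are not treated as pairs. Members called lower with knockdown were 5 in VM sets and 6 in VM sets with the unmatched library, where 12.2% and 16.7% of all genes were called lower. They were 5 in a fit of the 2 groups compared, 5 with siRNA number 2 alone and 0 with number 4 alone. MFAP4 still had -2.53 with number 4 alone (adjusted p = 0.0925). The share of all genes called is not given for these last fits, nor for most other alternatives of this section. Their counts are not read as results about these genes alone. V sets alone gave 3 lower members in place of 6 against DMSO_siNT, with 12.7% of all genes called lower. With siRNA 4 alone or a 2-fold limit, 0 members were higher with 4OHT. Other genes lower with knockdown were 14 in VM sets with the unmatched library, 13 with 2 groups, 0 with siRNA 4, 4 at adjusted p under 0.01 and 3 over 2-fold. Those higher with knockdown were 1 under siRNA 4, over 2-fold and with at least 10 counts in every library. With 4OHT, other genes higher were 7 under that count filter and 6 over 2-fold, and lower 5 with siRNA 4. Under the count filter 4 were higher in 4OHT_siSMARCA4 against DMSO_siNT. DESeq2 called 1 member and the fit of all genes with a count 1 member between siNT 2 and siNT 4 in DMSO, and DESeq2 called 2 between VM and V in DMSO. Signs turned, without a call in the fit of all libraries, for LTBP2 with 4OHT under siRNA 2 (-0.025) and against DMSO_siNT in V sets (0.54) and under siRNA 4 (0.63), for FBN1 (0.19) and FBLN5 (0.16) with 4OHT under siRNA 4, and with knockdown for FBLN1 under siRNA 2 (0.28) and ELN under siRNA 4 (-0.92). Leaving out 1 library gave -1.03 to 0.69 for ELN and -0.11 to 0.015 for FBLN1 with knockdown. ELN had no value in any contrast, its fall with 4OHT included, under the count filter, and none with knockdown in the 2-group fit. The cause of these shifts was not tested, beyond the smaller number of libraries in each subset. At 0 to 11 counts per library, depth limits ELN in both 4OHT groups.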
